A study of Mus musculus with 2 samples.

Results

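Matrix metalloproteinases and their tissue inhibitors were examined as 10 genes chosen by symbol, 7 of the Mmp family (Mmp9, Mmp2, Mmp14, Mmp8, Mmp13, Mmp12 and Mmp19) and 3 of the Timp family (Timp1, Timp2 and Timp3). All 10 symbols were found among the 26037 genes of the table. The study set an MMP9_KO library beside a Control library, with 1 library per group, in primary osteoclast cultures from C57BL/6 mice aged 6 to 8 weeks. Marrow was first cultured with 10% serum and 5 ng/ml of the macrophage growth factor M-CSF. Cells that had not attached were moved to 30 ng/ml of M-CSF for 3 days, and both cultures were then given RANKL, the cytokine that drives osteoclast formation, for 3 days. The column headings add the letters "sh" to MMP9_KO and "NCsh" to Control, and the sources used here do not say if the gene was deleted or silenced, nor if marrow of several animals was pooled.

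Matrix metalloproteinases are zinc-dependent enzymes that are made as inactive precursors and cut collagens, other matrix proteins and many cell-surface and secreted proteins. TIMPs bind their active sites and block them, and TIMP2 also takes part, together with the membrane-bound MMP14, in the activation of the MMP2 precursor. In bone, MMP9 and MMP14 are the metalloproteinases best known from osteoclasts, and the series concerns cutting of the histone H3 tail during differentiation.

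The MMP9_KO library held 17741432 reads in 15414 genes and the Control library held 20678441 reads in 15744 genes. Levels are given as normalised read counts, the deposited log2 values taken back to a linear scale, on which 1 read was worth 0.0238 in MMP9_KO and 0.0248 in Control. These levels are not divided by gene length. A mean level of at least 1 in the 2 libraries made a gene comparable, and a gene was called higher or lower when log2 of the MMP9_KO level plus 1 over the Control level plus 1 reached 2-fold. Printed folds are plain ratios without this pseudocount, with exact 95% intervals for counting error only. Since each group is a lone library, the genotypes could not be tested against each other and no difference below has a replicate check.

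Of the 10 genes, 4 reached the level for comparison (Mmp9, Mmp14, Mmp19 and Timp2), of which 3 were lower by at least 2-fold in MMP9_KO, 0 were higher and Mmp19 was within 2-fold. Over all 11126 compared genes, 9.58% were lower and 4% were higher by the same rule. Mmp14 and Timp2 were under 1 in MMP9_KO and passed the level filter only through Control, so their place among the compared genes already required a large difference. The median log2 ratio of the 4 was -1.92, beside -0.16 over all compared genes. With 4 genes this median is set by Mmp14 and Timp2, so its low value follows in part from the filter. With no filter the median of the 10 genes was 0.016. With a pseudocount of 5, Mmp9 alone of the 3 stayed past 2-fold. The split over all genes depended on scaling: 445 were higher and 1066 lower as deposited (29.5% of those past 2-fold higher), 573 and 798 (41.8%) with the median ratio set to 0, 583 and 786 (42.6%) with a trimmed mean, 691 and 684 (50.3%) with equal sums, and 534 and 677 (44.1%) when ratios were centred in bins of GC content and length.

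**Figure D1:**
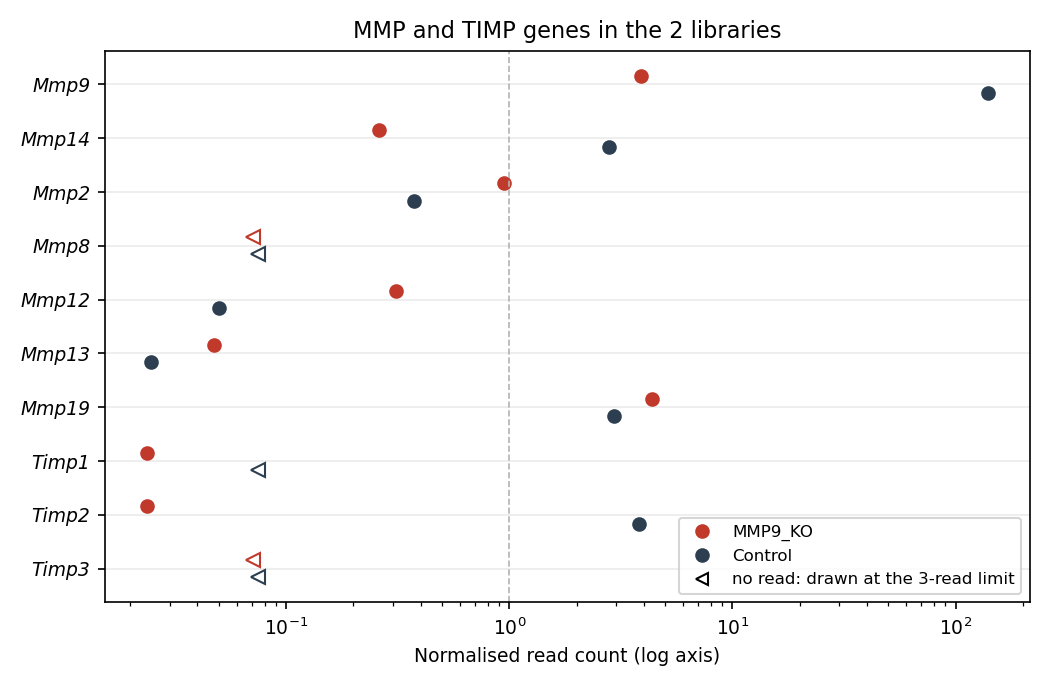
Normalised read count (log axis) of each of the 10 genes in the MMP9_KO library (red, upper point) and the Control library (dark, lower point). Open triangles mark a gene with no read, drawn at the level of 3 reads, and the dashed line marks a level of 1. Mmp9 is the only gene above 10 in either library, at 139 in Control.

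Mmp9 encodes gelatinase B, which cuts denatured collagen, and it is the gene named in the genotype. It lies at chr2:164940780-164955850 on the plus strand of GRCm38. Its level was 3.87 in MMP9_KO (163 reads), against 139 in Control (5609 reads). The MMP9_KO level was thus 2.78% of the Control level, 35.99-fold lower (30.8 to 42.3), and the counting intervals lie far apart. The low level matches the label, but 5 other compared genes had a lower log2 ratio than the -4.85 of Mmp9. The osteoclast protease gene Ctsk was among them, so the level of Mmp9 does not by itself show what was targeted. The genes closest to Mmp9 in level and difference together, by distance in the plane of the 2 log2 levels, were Ccr1, Fam198b, Bhlhe40 and Anpep. Ccr1, a chemokine receptor gene, had 3.75 in MMP9_KO and 117 in Control, and Anpep, the gene of aminopeptidase N, had 7.70 in MMP9_KO and 110 in Control. A likeness over 2 libraries rests on 2 values per gene and is a description of these libraries.

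Mmp2 encodes gelatinase A, the other gelatinase, at chr8:92827291-92853420 on the plus strand. Its level was 0.95 in MMP9_KO (40 reads), against 0.373 in Control (15 reads). The ratio was thus the opposite way from that of Mmp9, 2.55-fold higher in MMP9_KO with a counting interval from 1.38 to 4.97. Mmp2 stayed under the mean level of 1 and was not compared, and on the pseudocount scale its log2 ratio was 0.51.

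Mmp14 encodes the membrane-type enzyme MT1-MMP, which cuts matrix at the cell surface, at chr14:54431612-54445364 on the plus strand. It had 0.261 in MMP9_KO (11 reads) and 2.81 in Control (113 reads). Mmp14 was 10.7-fold lower (5.78 to 22.1), and on the pseudocount scale, which shrinks low genes, its log2 ratio was -1.59. Its nearest genes in level and difference were Pgm5, Zfyve28, Calcr and Gpr17. Calcr, the calcitonin receptor gene and a marker of osteoclasts, had 0.190 in MMP9_KO and 3.03 in Control.

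**Figure D2:**
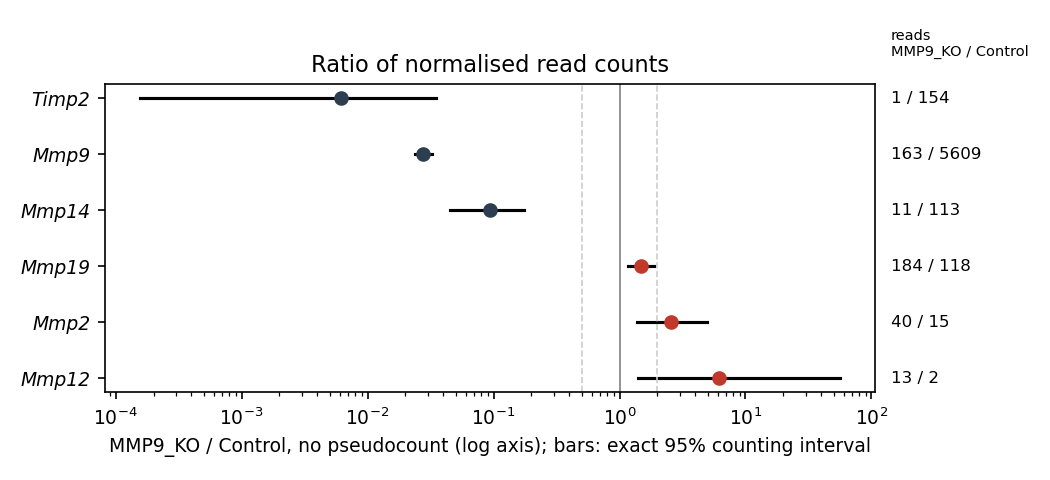
Ratio of the MMP9_KO to the Control normalised read count (log axis) for the 6 genes with more than 3 reads in at least 1 library, with exact 95% counting intervals as bars and reads per library at the right. Dashed lines mark a 2-fold difference. Timp2, Mmp9 and Mmp14 lie below 1, and Mmp19, Mmp2 and Mmp12 above it.

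Timp2 encodes an inhibitor of MMPs and the partner of MMP14 in the activation of MMP2, at chr11:118301069-118355740 on the minus strand. It had 0.0238 in MMP9_KO, which is 1 read, against 3.83 in Control (154 reads). The ratio was 161-fold lower with a wide counting interval from 28.5 to 6403. The annotated gene Cep295nl lies within Timp2 on the same strand, shares no exon bases with it and had no read in either library.

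Timp1 and Timp3, the other inhibitors, were near or at 0. Timp1, an inhibitor gene that many cell types switch on with growth factors and cytokines, had 1 read in MMP9_KO and 0 in Control. Timp3, whose protein is bound to the matrix, had 0 reads in both libraries. A count of 0 allows a level of up to 0.0713 in MMP9_KO and 0.0745 in Control, taking 3 reads as the limit. No fold is given for either gene. Timp1 lies within the neuronal gene Syn1 on the opposite strand with no shared exon bases, and Syn1 had 1.35 in MMP9_KO and 1.66 in Control. Timp3 shares 1733 exon bases with Syn3 on the opposite strand, and Syn3 had 0 reads in MMP9_KO and 3 in Control. Timp4, the other gene of the family, had no read in either library. Summed over the 4 Timp genes, the level was 0.0475 in MMP9_KO and 3.83 in Control, where Timp2 gave 100% of the Timp reads. Ubiquitous genes were not at 0: the levels of 10 of them, among them Actb and Gapdh, lay between 175 and 5149 in MMP9_KO and between 108 and 6195 in Control.

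The 3 chromosome 9 genes were close to 0. Mmp8 encodes the neutrophil collagenase, at chr9:7558456-7568485, and had 0 reads in both libraries. Mmp13 encodes a collagenase of cartilage and bone-forming cells, at chr9:7272514-7283331, and had 0.0475 in MMP9_KO (2 reads) and 0.0248 in Control (1 read), too few for a fold. Mmp12 encodes the macrophage metalloelastase, at chr9:7344381-7369499. It had 0.309 in MMP9_KO (13 reads), against 0.0497 in Control (2 reads), a ratio of 6.21 with a counting interval from 1.41 to 56.7. The 10 Mmp genes on chromosome 9 together had 15 reads in MMP9_KO and 3 in Control, and 8 of them had no read in either library. Mmp12 shares 157 exon bases with Mmp1b on the opposite strand, and Mmp1b had no read.

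Mmp19 encodes a secreted enzyme that cuts basement membrane proteins, at chr10:128790910-128800824 on the plus strand. It had 4.37 in MMP9_KO (184 reads) and 2.93 in Control (118 reads). This is 1.49-fold higher (1.18 to 1.89), within 2-fold, with a log2 ratio of 0.45 beside the median of -0.16 over all genes. Its exons share 789 bases with Tmem198b (1110012D08Rik in the table) on the opposite strand. Tmem198b had 5.63 in MMP9_KO (237 reads) and 4.22 in Control (170 reads). The sources used here do not say if strand was used in counting, so reads of the overlap cannot be told apart.

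Of the other 16 Mmp genes and Timp4, only Mmp24 reached the level for comparison. Mmp24, which encodes a membrane-type enzyme known mainly from the nervous system, had 2.28 in MMP9_KO (96 reads) and 2.93 in Control (118 reads), with a counting interval of the ratio that includes 1 (1.29-fold lower, 0.974 to 1.70). Its log2 ratio of -0.26 turned to 0.19 when centred by GC content and length. It shares 637 exon bases with BC029722 on the opposite strand, which had 7.08 in MMP9_KO and 9.47 in Control. Of these 17 genes, 14 had at most 3 reads in each library, and Mmp1a and Mmp1b, interstitial collagenase genes, had none.

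Set per length of the longest annotated transcript, the order of the 10 genes differed between the libraries. In MMP9_KO the highest levels per kb were those of Mmp19 (1.28, counting interval 1.11 to 1.48) and Mmp9 (1.22, 1.04 to 1.42), whose intervals overlap, followed by Mmp2 (0.309), Mmp14 (0.0807) and Mmp12 (0.0690), and the intervals of these last 2 overlap as well. In Control Mmp9 stood first at 43.9 (42.8 to 45.1), and Timp2 (1.03), Mmp14 (0.867) and Mmp19 (0.862) followed with overlapping intervals, ahead of Mmp2 (0.121). With the median transcript length of each gene, Mmp9 came before Mmp19 in MMP9_KO and Mmp14 before Timp2 in Control. That length is 793.5 bases for Mmp9 and 779 for Mmp14, far under their longest transcripts of 3175 and 3238. For Mmp19 it is 2236 bases and for Timp2 2213.5, so short annotated transcripts of Mmp9 and Mmp14 set the changed order.

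The make-up of the Mmp transcripts differed between the libraries. Of the summed level per kb of longest transcript over 23 Mmp genes, Mmp9 gave 33.2% in MMP9_KO and 94.4% in Control. With the median transcript length these shares of Mmp9 were 51.1% in MMP9_KO and 96.4% in Control. Mmp19 gave 34.96% in MMP9_KO and 1.85% in Control by the longest transcript, and 20.5% in MMP9_KO and 0.719% in Control by the median length. Mmp24 gave 14.4% in MMP9_KO and 1.46% in Control, or 9.65% in MMP9_KO and 0.650% in Control by the median length. By both lengths the share of Mmp9 was thus lower, and those of Mmp19 and Mmp24 higher, in MMP9_KO than in Control. Because Mmp9 gave most of the Control sum, its lower level raises the shares of other genes by arithmetic. Mmp24 itself was lower per kb of longest transcript in MMP9_KO (0.530) than in Control (0.681). Without Mmp9, the sum over the 22 other Mmp genes was 2.46 per kb in MMP9_KO and 2.61 in Control by the longest transcript, and 4.67 in MMP9_KO and 6.63 in Control by the median length.

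**Figure D3:**
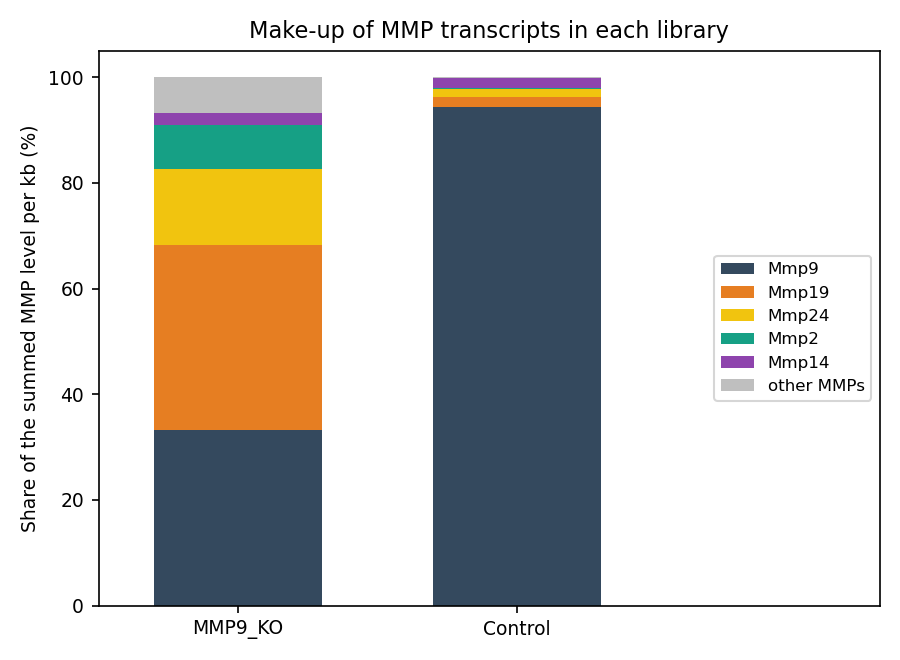
Share of the summed level per kb of longest transcript over 23 Mmp genes (percent) in the MMP9_KO library (left) and the Control library (right), with Mmp9, Mmp19, Mmp24, Mmp2, Mmp14 and all others stacked. Mmp9 takes 33.2% in MMP9_KO and 94.4% in Control by this length.

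**Figure D4:**
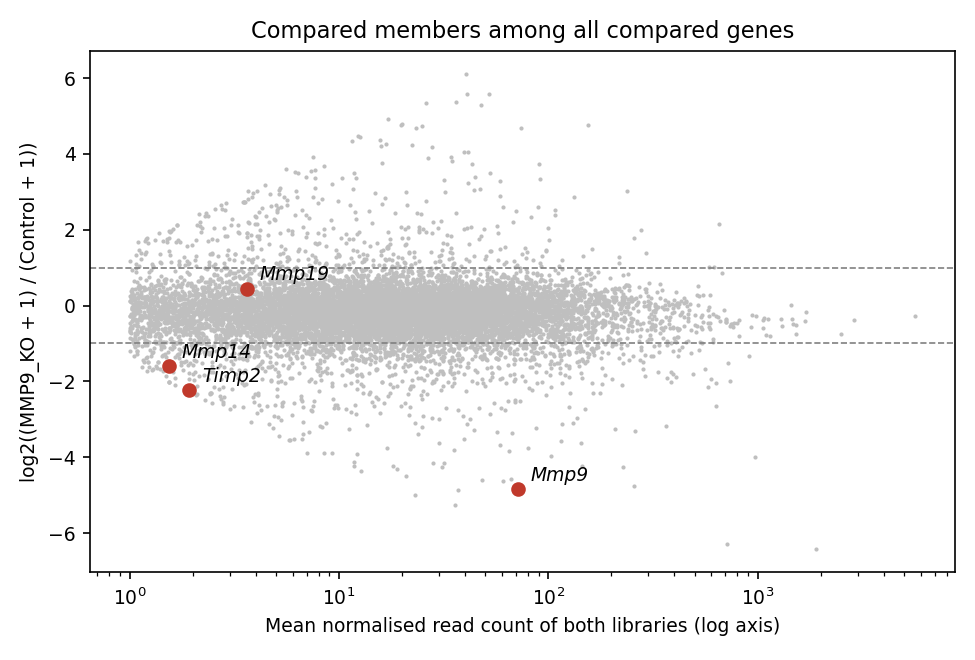
Log2 ratio with a pseudocount of 1 against the mean normalised read count of both libraries (log axis) for the 11126 compared genes (grey) and the 4 compared Mmp and Timp genes (red). Dashed lines mark 2-fold. Mmp14 and Timp2 lie at low means, where the pseudocount limits the ratio, and Mmp9 lies near the lower edge at a mean of 71.6.

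Promoter sequence was looked at to describe what the genes share beyond the symbols by which they were chosen. Of the 10 genes, 7 matched an entry of the RefSeq promoter table (GRCm38.p6), with 8 annotated starts; Mmp9, Mmp2 and Mmp19 did not. The 250 bases before each start were searched on both strands for TGANTCA (AP-1, the site of Fos and Jun proteins), GGAAA (the core of NFAT sites) and CCGCCC (the GC box), and capitals below mark the matches. None of these 3 motifs overlapped another in the windows shown, and the 2 GC boxes of Mmp14 stand side by side. The windows are chr14:54431348-54431597 (plus strand) for Mmp14, chr11:118355412-118355661 (minus strand) for Timp2 and chr9:7347124-7347373 (plus strand) for the Mmp12 start with an AP-1 match.
Mmp14: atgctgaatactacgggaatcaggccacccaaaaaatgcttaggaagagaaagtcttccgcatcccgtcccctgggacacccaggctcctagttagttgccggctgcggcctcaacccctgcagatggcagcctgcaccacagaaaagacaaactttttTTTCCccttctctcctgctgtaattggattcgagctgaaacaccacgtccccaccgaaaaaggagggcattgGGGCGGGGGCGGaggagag
Timp2: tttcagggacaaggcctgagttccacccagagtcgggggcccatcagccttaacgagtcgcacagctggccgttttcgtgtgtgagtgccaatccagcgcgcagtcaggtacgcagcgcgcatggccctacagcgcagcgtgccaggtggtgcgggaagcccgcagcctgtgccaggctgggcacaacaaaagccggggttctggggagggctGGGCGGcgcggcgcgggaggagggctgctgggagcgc
Mmp12: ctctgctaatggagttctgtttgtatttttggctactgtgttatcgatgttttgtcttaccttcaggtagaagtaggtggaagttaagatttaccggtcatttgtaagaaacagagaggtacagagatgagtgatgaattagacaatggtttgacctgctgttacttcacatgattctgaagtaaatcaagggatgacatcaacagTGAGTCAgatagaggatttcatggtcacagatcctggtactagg

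The GC box was found in 4 of the 8 windows (Mmp14, Timp1, Timp2 and Timp3), beside 32.7% of 32851 promoters of the table. The AP-1 motif was found in 2 (Mmp13 and Mmp12), beside 6.75% of promoters, and the NFAT core in 3 (Mmp13, Mmp14 and Timp1), beside 55.6%. In Mmp14 the first GC box begins 19 bases before the start, in Timp2 37 bases before it, and the AP-1 match of Mmp12 begins 44 bases before it. GC content was 55.2% in the Mmp14 window, 68% in that of Timp2 and 39.6% in that of Mmp12. Windows with a GC box thus include genes with reads (Mmp14, Timp2) and genes at or near 0 (Timp1, Timp3). A match describes the letters and does not show that a factor binds.

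Of the genes whose products activate, anchor or clear MMPs, 7 compared ones are given here, of which 2 were lower by 2-fold or more and 5 were within 2-fold. Over all compared genes, 9.58% were lower and 4% were higher by this rule, here and for the lists below. Plau, which encodes the urokinase protease that starts the plasmin cascade upstream of MMP activation, had 175 in MMP9_KO and 616 in Control, 3.53-fold lower (3.44 to 3.62). Cd63, a tetraspanin that binds TIMP1, had 20.8 in MMP9_KO and 49.1 in Control. Furin, the protease that cuts the MMP14 precursor, had 31.2 in MMP9_KO and 61.6 in Control, just within 2-fold. Bsg, whose product basigin is known to induce MMPs in neighbouring cells, had 79.1 in MMP9_KO and 136 in Control, and the hyaluronan receptor gene Cd44, whose product can hold MMP9 at the cell surface, had 112 in MMP9_KO and 190 in Control. The urokinase receptor gene Plaur had 12.8 in MMP9_KO and 10.9 in Control, and Lrp1, which encodes a receptor that takes up MMPs for breakdown, had 848 in MMP9_KO and 1275 in Control. Lcn2, named after its values were seen, encodes a partner of MMP9 in neutrophils, and had 70 reads in MMP9_KO (1.66) and 0 in Control.

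Of 16 bone matrix substrates only the osteopontin gene Spp1 was compared, with 412 in MMP9_KO and 521 in Control, within 2-fold. The collagen genes Col1a1 and Col1a2 had no read in either library. Of 16 listed growth factors and cytokines that MMPs cut or release, 8 were compared, with 2 higher, 2 lower and a median of 0.20. Tnf had 85.5 in MMP9_KO and 9.22 in Control, 9.27-fold higher (8.33 to 10.3). The chemokine gene Ccl7, which passed the level filter only through MMP9_KO, had 10.05 there and 0.323 in Control. The stem cell factor gene Kitl, which passed only through Control, had 0.641 in MMP9_KO and 12.8 in Control, and Lgals3, the galectin-3 gene, had 11.5 in MMP9_KO and 194 in Control, 16.8-fold lower (15.3 to 18.4). Vegfa and Tgfb1, whose products MMPs free from the matrix, were within 2-fold, Vegfa at 17.7 in MMP9_KO and 14.6 in Control and Tgfb1 at 53.0 in MMP9_KO and 86.05 in Control.

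Among 15 compared transcription factors that act on Mmp promoters, 2 were higher, 4 were lower and 9 were within 2-fold, with a median of -0.44. Nfatc1, the driver of osteoclast formation, was 2.14-fold lower (2.08 to 2.20), at 177 in MMP9_KO and 378 in Control. Fosl2 was 2.40-fold lower (2.35 to 2.46) and Mitf 2.55-fold lower (2.38 to 2.73). Ets2 had 54.0 in MMP9_KO and 14.5 in Control, 3.71-fold higher (3.39 to 4.07), and Fosl1, another AP-1 subunit, had 9.76 in MMP9_KO and 2.93 in Control, 3.33-fold higher (2.71 to 4.12). Fos was 39.1 in MMP9_KO and 67.9 in Control, within 2-fold. Jun, Junb and Jund were also within 2-fold, with log2 ratios of -0.36, -0.31 and -0.85. Fosl1 was thus alone among the listed AP-1 genes in being higher in MMP9_KO. Of 6 compared proteases listed as candidates for cutting histone tails, Mmp9 and Ctsk were lower by at least 2-fold. Ctsl, the cathepsin L gene, was within 2-fold at 118 in MMP9_KO and 67.0 in Control, and Ctsb and Ctsd were within 2-fold with log2 ratios of -0.88 and -0.97.

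**Figure D5:**
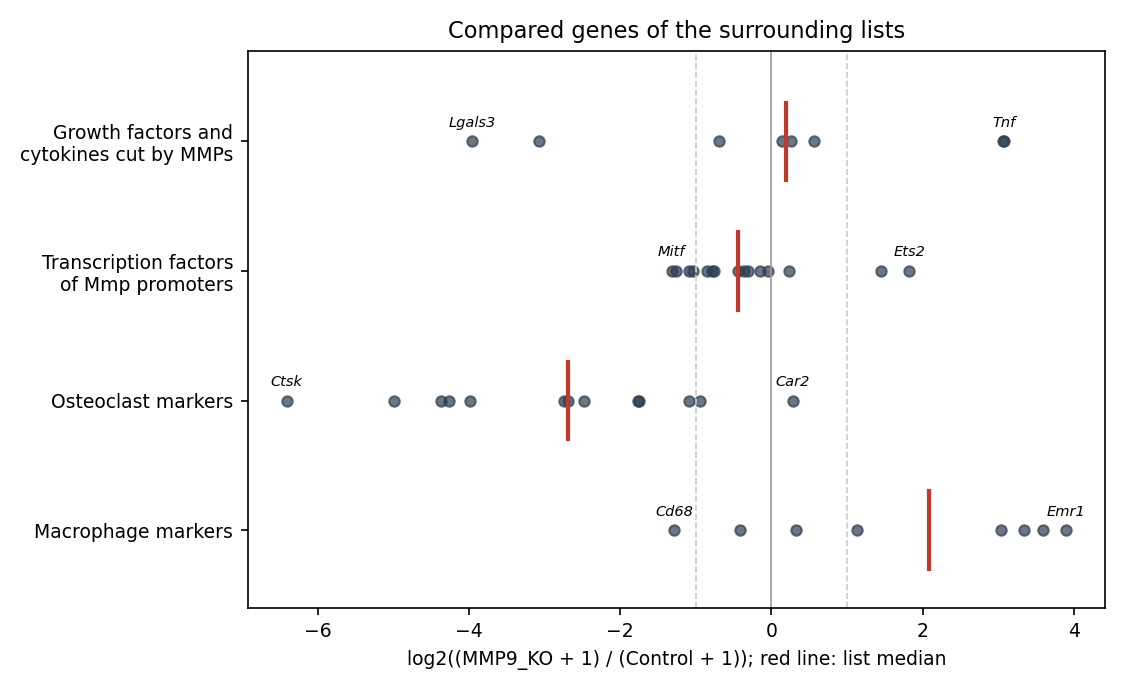
Log2 ratio with a pseudocount of 1 for the compared genes of 4 lists (points), with the list median (red line), 2-fold (dashed) and the lowest and highest gene of each list named. Osteoclast markers have a median of -2.69 and macrophage markers a median of 2.09.

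Markers of the cells in culture differed between the same libraries. All 13 osteoclast markers found were compared, 11 were lower in MMP9_KO by 2-fold or more and 2 stayed within 2-fold. Over all compared genes 9.58% were lower and 4% higher. The summed level of the 13 was 1241 in MMP9_KO and 8038 in Control. Ctsk, which encodes cathepsin K, had 42.9 in MMP9_KO and 3745 in Control, and Acp5, which encodes tartrate-resistant acid phosphatase, had 114 in MMP9_KO and 1828 in Control. Car2, the highest of the 13 in MMP9_KO, went the other way within 2-fold, at 599 in MMP9_KO and 491 in Control. The labelled cell type was thus matched by these markers in Control, and at lower levels for all but Car2 in MMP9_KO. Calcr, Oscar and Itgb3 passed the filter only through Control. Of 11 macrophage markers found, 8 were compared, with 5 higher, 1 lower (Cd68) and 2 within 2-fold, and a summed level of 1430 in MMP9_KO and 1061 in Control. Emr1, the gene of a macrophage surface antigen, had 50.5 in MMP9_KO and 2.46 in Control. Fcgr1, counted among the 5 higher, passed the filter only through MMP9_KO, at 11.1 there. The macrophage markers Mrc1, Fcgr1 and Mertk had no read in Control. In MMP9_KO, Fcgr1 had 468 reads, while Mrc1 with 5 and Mertk with 1 were near 0 there too and were not compared. The part of these marker differences in the levels of Mmp9, Mmp14, Timp2, Mmp12 and Mmp19 was not tested. In bulk RNA, fewer cells of a type and less RNA per cell cannot be told apart.

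Markers of cells that are known sources of MMPs and TIMPs were low in both libraries. The 12 neutrophil markers found summed to 0.736 in MMP9_KO and 0.348 in Control, and 9 of them, among them Elane and Mpo, had no read in either library. The 15 stromal and osteoblast markers summed to 1.12 in MMP9_KO and 1.71 in Control, with Col1a1 and Col1a2 at 0. Runx2 was the highest of them, with 22 reads in MMP9_KO and 34 in Control. The 8 endothelial markers summed to 2.42 in MMP9_KO and 5.44 in Control, most of it from Eng (1.97 in MMP9_KO and 4.10 in Control). In Control, Mmp14 (2.81) and Timp2 (3.83) were above each stromal marker, of which Runx2 was highest at 0.845, and below Eng (4.10). None of these levels is divided by gene length, so they do not rank the genes. The part of such cells in the Mmp and Timp levels was not tested.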

How the data were processed

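Per the labels, libraries of polyadenylated RNA from 2 cultures were run on an Illumina sequencer. The submitters' processing notes name TopHat and mm9; the sources used here give no versions, counting program, annotation, strand use or normalisation. The authors deposited log2 values titled normalised RPKM. On a linear scale each library's values were whole multiples of 1 step, the same for genes of any length, within 0.05 of a whole read for 99.99% of values. They were therefore treated as reads times 1 factor per library. A gene with no read carried 0.9 of a step and was set to 0. The design assumed a linear normalised unit, and its description without a test was kept.

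Columns were matched to groups by the names in their headings. Thresholds were a pseudocount of 1, a mean of at least 1 and 2-fold. Ratios have exact binomial (Clopper-Pearson) intervals and levels per kb exact Poisson intervals, at 95%, for counting error only, since PCR reads that carry no molecular identifier are not separate molecules. Positions, overlaps, lengths and GC content came from GENCODE M21 (GRCm38), another build than mm9, by Ensembl identifier (23607 genes matched). Promoters came from RefSeq (GRCm38.p6). Named genes were all 10 members, the first 2 found and the 4 compared genes that differed most in each other list, and the 4 genes nearest to Mmp9 and to Mmp14; further genes, overlapping genes among them, were added after values were seen. An entry of the list on activation, anchoring and clearance is not reported here, so no median of that list is given. The members and the 12 other lists were chosen with earlier results of these data known. Alternatives were pseudocounts of 0.1 and 5, no filter, a mean of at least 5, 3 scalings of MMP9_KO, centring in bins of GC content and length (5 of each), and the median transcript length. Python 3.11.15, numpy, pandas and scipy were used, and the steps were tested on simulated data.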

Additional observations from a re-analysis of the deposited data

How the results depend on the processing

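No paired analysis was possible because each group has a lone library, which also means that none could be left out. The log2 ratio of Mmp9 was -4.85 as reported, -5.13 and -4.02 when the pseudocount was 0.1 and 5, -4.62 when both libraries had the same sum, -4.44 when centred by GC content and length, and -5.17 without any pseudocount, an alternative added after the data were seen. The scalings shift log2 ratios by at most 0.29, so its kept sign was fixed in advance. Of the compared Mmp and Timp genes, 1 in place of 3 was lower by at least 2-fold when the pseudocount was 5, which by construction shrinks genes at low levels, and 1 with a mean of at least 5, where Mmp9 alone was compared. Over all genes, 255 were higher and 603 lower with a pseudocount of 5, 691 and 684 with equal sums, and 677 were lower after centring. The median log2 ratio of the 10 genes turned to 0.016 with no filter, since 6 genes under the level filter entered. Mmp14 ranged from -3.43 to -0.57 and Timp2 from -7.33 to -0.81 on the log2 scale, both extremes being set by the pseudocount. Over the 10 genes, 61 alternative log2 ratios stayed within the counting interval (or within 0.1 where there is none) and 20 did not. Many of the 61 were fixed in advance. The level filters do not enter the ratio of a gene. Mmp8 and Timp3, with 0 reads in both libraries, keep a ratio of 0 under any pseudocount or scaling. Of the medians of the lists, 22 alternative values moved by under 0.1, 55 by more, and 1, named above, was counted as a change of sign. At high levels the 3 scalings shift log2 ratios by 0.18 to 0.29, so there a move past 0.1 was fixed in advance. Bone matrix substrates, endothelial markers, and the other Mmp genes with Timp4 had 1 compared gene each, so their reported median is that gene. Among the 55, the median of the other Mmp genes and Timp4 also changed sign, from -0.26 to 0.19 when centred by GC content and length. This is the change of Mmp24 given above, since Mmp24 alone was compared in that list. The cause was not tested. With 17741432 reads summed over genes in MMP9_KO and 20678441 in Control, Mmp8, Mmp13, Timp1 and Timp3 were at or under the 3-read limit in both. These sums count reads in genes only, and the full depth of the libraries is not known here.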
